A study of Mus musculus with 4 samples.

Results

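Slpi, Gdpd3 and Reln are 3 genes whose transcripts were measured well above background in islets of wild type mice and not in islets of mice lacking the bone morphogenetic protein receptor gene Bmpr1a. They were chosen by name because of that difference, from the intensities of the knockout and wild type arrays, out of 17711 genes with a probe on the array. Their knockout values are therefore described here and carry no test. Together they have 8 of the 46632 probes, 1 each for Slpi and Gdpd3 and 6 for Reln, and 3 of these 8 passed the filter on dim probes (detection p below 0.05 on both arrays of either genotype), 1 for each gene. A member passed that filter through the wild type arrays alone, so passing it is no result about the members.

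Total RNA of isolated pancreatic islets was labelled with biotin and hybridised to 4 Illumina mouse bead arrays, 1 per sample. The first group is 2 samples of knockout mice, in which Bmpr1a was deleted under the control of Pdx1, a transcription factor of the pancreatic primordium and of beta cells, so that other cells in an islet preparation need not carry the deletion. The second group is 2 samples of wild type mice. Mice of both groups were 12 weeks old and of C57BL/6 background, and no Cre status is given for the wild type animals (Cre is the enzyme commonly used for such deletions). Nothing states that samples came from separate animals. The p-values given for other genes therefore cover the spread among these 4 samples, part of which may be technical. Islet hormone and endocrine transcripts were present in both groups, with all 13 tested markers of the endocrine list detected, among them Ins2 and Gcg. The Bmpr1a probe itself read 887 and 687 on the knockout arrays, against 793 and 851 on the wild type arrays (raw intensity). It differed by -0.28 ± 0.14 on the log2 scale (SE) and did not pass limma's test (adjusted p = 0.204). Its position against the deleted exons is unknown, so it gives no check of the genotype labels.

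Slpi encodes secretory leukocyte protease inhibitor, a small secreted protein with WAP domains that blocks neutrophil elastase, cathepsin G, trypsin and chymotrypsin and dampens inflammatory signalling in macrophages. It is made by epithelia and by several leukocyte types. Gdpd3 encodes a membrane enzyme of the glycerophosphodiester phosphodiesterase family that acts as a lysophospholipase D and can release lysophosphatidic acid, a lipid that signals through G protein coupled receptors. Reln encodes reelin, a large extracellular glycoprotein that binds the lipoprotein receptors Vldlr and Lrp8 and signals through the adaptor Dab1. Reelin is best known for placing neurons in the developing brain, and outside the brain it is made by lymphatic endothelium among other cells.

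The start regions of the 3 genes are shown because their transcripts share one pattern across genotypes while their promoters differ in base composition. Each sequence runs from 250 bases before to 50 bases after the annotated start on the gene's strand, taken from RefSeq on build GRCm38.p6. Capitals mark 2 motifs bound by Smad proteins, the transcription factors downstream of Bmp receptors. These are CAGAC (or GTCTG on the other strand) and GGCGCC, searched on both strands, and neither window that holds one holds the other.
Slpi, chr2:164356458-164356757, minus strand: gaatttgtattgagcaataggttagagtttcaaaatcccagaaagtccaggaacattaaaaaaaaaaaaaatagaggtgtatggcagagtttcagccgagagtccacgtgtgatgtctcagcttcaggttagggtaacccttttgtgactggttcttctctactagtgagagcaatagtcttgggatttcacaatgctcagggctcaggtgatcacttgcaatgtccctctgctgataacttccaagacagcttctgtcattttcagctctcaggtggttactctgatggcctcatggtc
Gdpd3, chr7:126766164-126766463, plus strand: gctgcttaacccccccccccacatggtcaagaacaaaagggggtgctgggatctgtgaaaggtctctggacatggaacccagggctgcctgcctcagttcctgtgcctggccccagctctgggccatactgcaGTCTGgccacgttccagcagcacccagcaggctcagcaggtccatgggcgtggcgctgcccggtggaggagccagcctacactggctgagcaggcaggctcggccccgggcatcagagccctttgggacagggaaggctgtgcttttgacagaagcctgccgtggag
Reln, chr5:22344656-22344955, minus strand: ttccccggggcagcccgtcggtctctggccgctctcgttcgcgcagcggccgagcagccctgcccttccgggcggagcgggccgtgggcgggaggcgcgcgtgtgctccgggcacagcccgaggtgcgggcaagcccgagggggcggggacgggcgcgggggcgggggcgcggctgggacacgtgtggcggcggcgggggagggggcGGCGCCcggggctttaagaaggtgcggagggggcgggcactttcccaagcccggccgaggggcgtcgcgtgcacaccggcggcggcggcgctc
The Slpi window held neither motif. The Gdpd3 window held 1 CAGAC match, written GTCTG, which starts 117 bases before the gene's start, and the Reln window held 1 GGCGCC match, which starts 43 bases before it. Of 32851 promoter windows of the same length, 49.6% held CAGAC on either strand and 11.9% held GGCGCC. A match describes these letters only. The Reln window was rich in CpG, with 47 CpG and a GC content of 80.7%, and 98.6% of all windows had fewer CpG. The Slpi window had 2 CpG and a GC content of 43.3%, and the Gdpd3 window 7 and 64.3%, where the median over all windows was 7 CpG and 52.7% GC.

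Slpi was bright in wild type islets and at background in knockout islets. Its raw intensity was 93.0 ± 6.71 on knockout array 1 and 81.8 ± 5.09 on knockout array 2, against 3952 ± 155 on wild type array 1 and 2065 ± 63.9 on wild type array 2 (standard error over the beads of 1 array). The deposited detection p, which compares a probe with negative control beads, was 0.0705 and 0.201 on the knockout arrays and listed as 0 on both wild type arrays. Neither knockout array therefore placed Slpi well above background. Both knockout arrays lay below both wild type arrays, as in 29.6% of all tested probes. Since these are whole islet preparations, fewer cells of a type and less RNA per cell cannot be told apart. After background correction and quantile normalization it averaged 5.28 ± 0.19 in knockout and 11.55 ± 0.74 in wild type islets (log2, SD, n = 2 each). With the knockout arrays set to the lowest detected level, the Slpi level of knockout islets was at least 62.4-fold lower than in wild type islets. The size of this bound depends on the background step, since it was 29.9-fold without background correction and 26.1-fold with the authors' processed values.

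Gdpd3 gave the same contrast at lower intensities. It read 82.8 ± 4.95 and 83.1 ± 5.21 on knockout arrays 1 and 2, with detection p of 0.164 and 0.185, against 1436 ± 50.8 and 754 ± 36.1 on wild type arrays 1 and 2. Both knockout arrays were within 1 bead standard error of each other, and both lay below the wild type arrays. Normalized values averaged 5.18 ± 0.01 in knockout and 10.05 ± 0.78 in wild type islets (log2, SD, n = 2 each). Knockout islets had at least 22.1-fold less Gdpd3 signal than wild type islets, or 11.0-fold without background correction and 9.57-fold with the authors' values.

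Reln differed in that its wild type arrays agreed closely. Its tested probe read 90.8 ± 4.62 and 90.1 ± 2.58 on knockout arrays 1 and 2, with detection p of 0.0855 and 0.124, against 661 ± 32.8 and 753 ± 28.7 on wild type arrays 1 and 2. Normalized values averaged 5.34 ± 0.03 in knockout and 9.44 ± 0.08 in wild type islets (log2, SD, n = 2 each), at least 14.4-fold lower in knockout islets. That bound was 7.34-fold without background correction and 6.49-fold with the authors' values. The other 5 Reln probes were not well above background on any array, with raw intensities of 49.0 to 91.8 and detection p of 0.119 to 0.967. Their knockout minus wild type differences lay between -0.25 and 0.05 on the log2 scale, and no fold is given for them. The Reln contrast thus rests on 1 of its 6 probes. That probe and 1 of the undetected probes are annotated to the RefSeq messenger RNA of Reln, and the other 4 to other cDNA records.

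**Figure D1:**
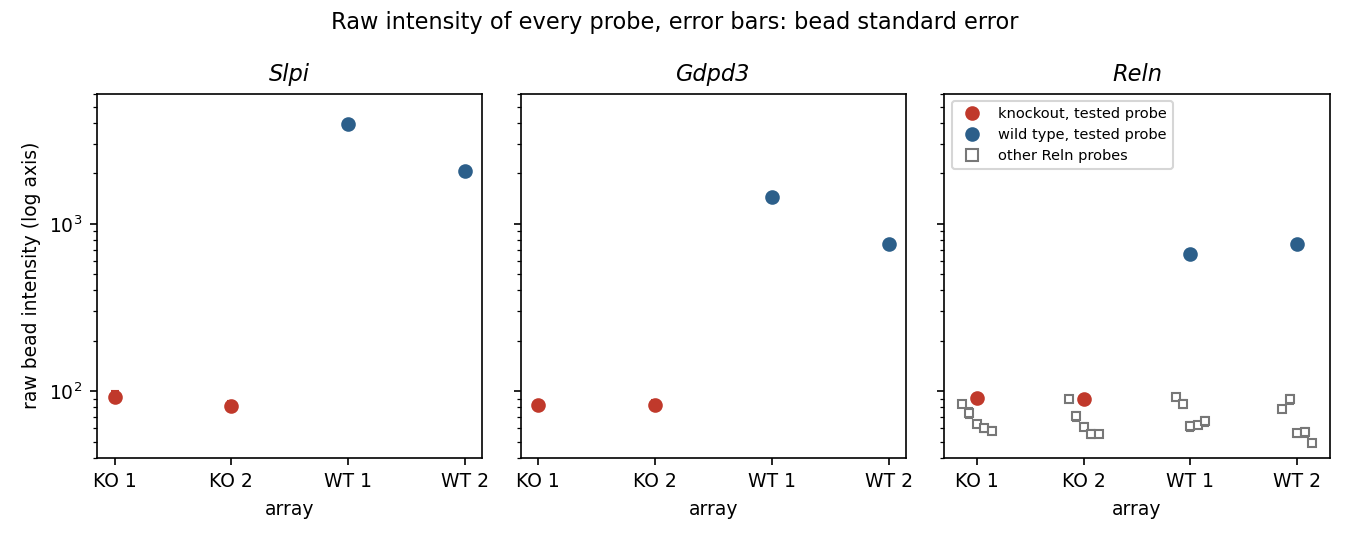
Raw bead intensity (log axis) of every probe of Slpi, Gdpd3 and Reln on knockout (KO) and wild type (WT) arrays, with error bars of 1 bead standard error that are mostly smaller than the symbols. Filled points are the tested probes, between 81.8 and 93.0 on knockout arrays and between 661 and 3952 on wild type arrays, and open squares are the other 5 Reln probes, between 49.0 and 91.8 on all arrays.

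Over all tested probes, 11.4% were lower in knockout islets past the limma threshold (adjusted p below 0.05), 14.1% were higher and 25.5% were called in either direction; by gene the share in either direction was also 25.5%. Both knockout arrays lay below both wild type arrays in 29.6% of probes, and 3.47% were detected on both wild type arrays and on neither knockout array. Because the members were picked for this contrast, these shares are background and nothing is read from the members' place in them. Of the 9352 genes with a tested probe, 238 were detected on both wild type arrays and on neither knockout array, with a median bound of 1.60-fold, and 6 of these were at least 10-fold lower. Besides the members these were Pou2af1, Lrmp and Fcrla, all known from B cells.

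The wild type arrays disagreed about Slpi and Gdpd3 by nearly the same factor. Wild type array 1 was 1.91-fold above wild type array 2 for Slpi and 1.91-fold for Gdpd3 in raw intensity, while for Reln the ratio was 0.877. Expressed in bead standard errors of the difference, the gaps were 11.3 for Slpi, 11.0 for Gdpd3 and -2.12 for Reln. On the normalized scale the gaps were 1.05, 1.11 and -0.12 (log2, wild type 1 minus wild type 2). Only 0.563% of tested probes had a larger gap than Slpi in either direction and 0.518% a larger one than Gdpd3, against 54.4% for Reln. Among probes within 0.5 of the same wild type level, the shares were 0.139% for Slpi, 0.440% for Gdpd3 and 45.3% for Reln. Without wild type 1 the bounds were 43.3-fold for Slpi and 15.0-fold for Gdpd3.

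A count chosen after these values were seen shows what else shared the gap. At least 1 log2 unit separated the wild type arrays, with wild type 1 higher, in 87 tested probes. Of these, 82 (94.3%) have no gene name in the platform annotation, against 22.3% of all tested probes. Of the 87, 66 were detected on both wild type arrays and on neither knockout array, Slpi and Gdpd3 among them. Such probes passed the filter only through the wild type arrays, so no count of calls is given for them. The 5 named probes are those of Slpi, Gdpd3, Oosp1, Gcnt3 and Nicn1. Oosp1 read 66.9 and 74.3 on the knockout arrays, against 273 and 155 on the wild type arrays. In the opposite direction, 11 probes were higher on wild type 2 by the same margin, 2 of them unnamed. With the authors' processed values 64 probes had wild type 1 higher by this margin, 62 of them unnamed. What the unnamed probes measure was not analysed here.

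**Figure D2:**
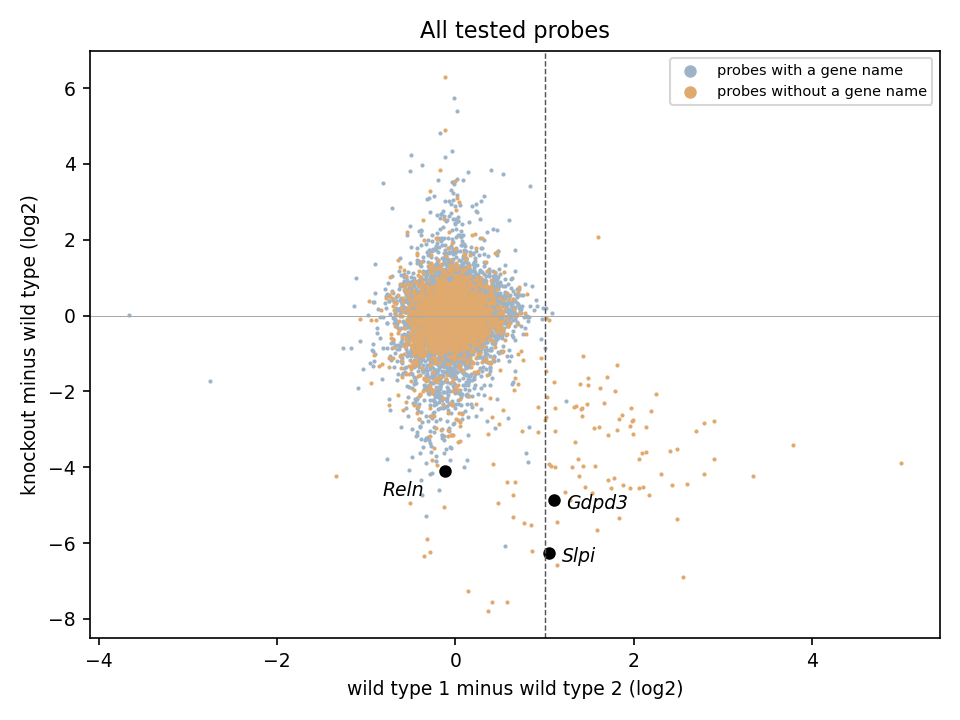
Knockout minus wild type (log2, vertical axis) against wild type 1 minus wild type 2 (log2, horizontal axis) for all 15639 tested probes, 1 point per probe, coloured by whether the annotation names a gene. Slpi and Gdpd3 lie right of the dashed line at a gap of 1 among mostly unnamed probes at negative values, and Reln lies at -0.12 among named probes.

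Likeness to other genes was measured as the root mean square difference between log2 profiles over the 4 arrays, each centred on its own mean. The 5 genes nearest to Reln were Tnfrsf13c at 0.059, Cd52 at 0.095, Vpreb3 at 0.14, Lrmp at 0.15 and S1pr2 at 0.16. Tnfrsf13c is the receptor for B cell activating factor, Vpreb3 belongs to B cell precursors, Cd52 is a lymphocyte surface protein, Lrmp is a lymphoid membrane protein, and S1pr2 is a sphingosine phosphate receptor of germinal centre B cells among others. Slpi and Gdpd3 had no named gene that close. The genes nearest to Slpi were Gdpd3 at 0.70, Pou2af1 at 0.71, Mzb1 at 0.89, Klhl6 at 0.95 and Cd79b at 1.01. Those nearest to Gdpd3 were Klhl6 at 0.48, Pou2af1 at 0.55, Cd52 at 0.57, Reln at 0.58 and Pdlim2 at 0.59. Pou2af1 is a coactivator of B cells, Mzb1 a chaperone of antibody-secreting cells and Cd79b a chain of the B cell receptor. Over 4 arrays the measure is set largely by the size of the genotype difference, for which the members were chosen. The cell type behind the members' values was not tested.

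The same measure was taken over all tested probes, named or not, as a description of the arrays that also chose the members. Of the 20 probes nearest to Gdpd3 all 20 were unnamed, and of the 20 nearest to Slpi 17 were unnamed, the named ones being Gdpd3, Pou2af1 and Mzb1. Wild type 1 was higher than wild type 2 in all 20 probes near Gdpd3 and in 19 of those near Slpi. Of the 20 nearest to Reln 4 were unnamed, and wild type 1 was higher in 3. This comparison too was chosen after the values were seen.

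**Figure D3:**
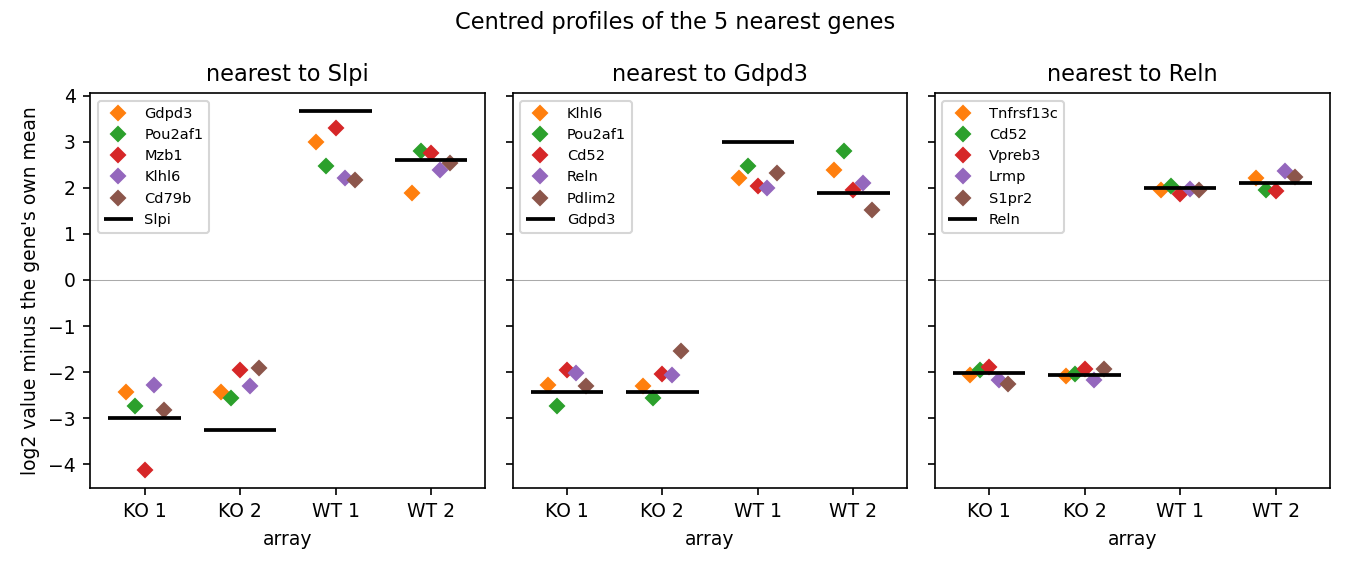
Normalized log2 value minus the gene's own mean (vertical axis) on each knockout (KO) and wild type (WT) array, with a black bar for the member named in the panel title and diamonds for its 5 nearest named genes. The diamonds lie close to the bars for Reln, and below the bars of Slpi and Gdpd3 on wild type 1.

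Among genes beside the members on the chromosome, Matn4 and Coro1a were lower in knockout islets, and the other tested neighbours did not pass. Of all tested genes 25.5% were called in either direction, so nothing is read from these calls about the loci. Matn4 passed the filter only through the wild type arrays. Neighbours were the 3 nearest protein-coding genes on each side in RefSeq annotation GRCm38.p6. Next to Slpi, 2 of 6 had a tested probe. Matn4, a cartilage matrix protein gene, was below reliable detection on the knockout arrays, where it was at least 1.28-fold lower (adjusted p = 0.0148 in limma), which no longer passed without wild type 2 (-0.73, adjusted p = 0.0965). Sdc4 changed by 0.53 ± 0.15 (SE, log2) and did not pass (adjusted p = 0.0502). This call was unstable, since limma passed Sdc4 under some alternatives. Among them were median scaling (adjusted p = 0.00684), the authors' values (adjusted p = 0.0309) and an offset of 50 (adjusted p = 0.0346). Next to Gdpd3, 5 of 6 had a tested probe, and 1 passed. It was Coro1a, an actin regulator of leukocytes, 2 genes away. Coro1a read 350 and 453 on the knockout arrays, against 3973 and 5007 on the wild type arrays, and fell by 3.84 ± 0.19 (SE, log2, adjusted p = 0.000142). Unlike Gdpd3, Coro1a stayed detected on both knockout arrays and was lower on wild type 1 than on wild type 2, with a gap of -0.22. The other 4, Bola2, Ypel3, Tbx6 and Ppp4c, differed by -0.29 to 0.05 and did not pass. Next to Reln, 3 of 6 had a tested probe, and Dnajc2, Psmc2 and Orc5 differed by -0.13 to 0.27 without passing.

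Other genes of protease inhibitor families (the protease inhibitor list) moved in both directions. Not every member need inhibit a protease. Of 16 tested genes of these families, 6 fell (37.5%, against 11.0% of all tested genes) and 3 rose (18.8%, against 14.5%) in limma. Their median change was -0.43 on the log2 scale, against 0.06 over all tested genes. Among the falls, Serpina3n and Serpinb6b passed the filter only through the wild type arrays. Serpina3n, an acute phase inhibitor of the serpin family, read 82.7 and 92.7 on the knockout arrays, not well above background, against 221 and 283 on the wild type arrays. It was at least 4.07-fold lower (adjusted p = 0.000526). Serpina7, which encodes thyroxine-binding globulin, fell by 1.43 ± 0.16 (adjusted p = 0.00216) with its brighter probe, and its other probe, at -0.65, did not pass. Tfpi, an inhibitor of the tissue factor pathway of clotting, fell by 1.37 ± 0.21 (adjusted p = 0.00669), and did not pass without wild type 2 (adjusted p = 0.0507). Spink1, the trypsin inhibitor of acinar cells, fell by 1.07 ± 0.19 (adjusted p = 0.0110), and also did not pass without wild type 2 (adjusted p = 0.0566). Without wild type 1 the list had 5 falls, without wild type 2 it had 3, and neither left a rise past the test.

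Most relatives of Slpi with WAP domains did not pass the filter on dim probes. Of 19 on the array 2 had a tested probe. In limma 1 of the 2 fell (50%, against 11.0% of all tested genes). It was Wfdc10, which passed the filter only through the wild type arrays and fell by 1.20 ± 0.17 (SE, log2, adjusted p = 0.00463). Wfdc16 differed by -0.60 ± 0.36 without passing (adjusted p = 0.257). Wfdc16 passed without knockout 2 (-1.20), which brought that list to 2. Serine proteases of the pancreas include trypsins and chymotrypsins, which Slpi can block. Of 10 pancreatic serine proteases, all tested (trypsins, chymotrypsins, elastases and the kallikrein Klk1), 3 fell (30%, against 11.0% of all tested genes), with a list median of -0.70. The median gap of the list between the wild type arrays was -0.55 (log2, wild type 1 minus wild type 2). That count is unstable, since it was 8 with replicate number as a block, 6 without wild type 1 and 0 without wild type 2 or without knockout 1, where limma gave 1 and 2 genes at an unadjusted p below 0.05. Ctrc, chymotrypsin C, fell by 1.10 ± 0.24 (adjusted p = 0.0218), and did not pass without wild type 2 or without knockout 1 (adjusted p = 0.0693 and 0.0646). Of 19 serine proteases of granulocytes, mast cells and cytotoxic cells only the mast cell chymase gene Cma1 was tested, at 0.13 ± 0.13 and not past the test (adjusted p = 0.508). The neutrophil protease genes Elane, Ctsg and Prtn3 were not detected on any array.

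Among relatives of Gdpd3, Gdpd1 and Gde1 rose. Of 6 other family members on the array 4 were tested and 2 rose (50%, against 14.5% of all tested genes). Gdpd1, which like Gdpd3 encodes a lysophospholipase D, read 847 and 858 on the knockout arrays, against 417 and 422 on the wild type arrays. It rose by 0.96 ± 0.13 in limma (SE, log2, adjusted p = 0.00390). Gde1, a glycerophosphodiesterase that also releases N-acylethanolamines, rose by 0.53 ± 0.12 (adjusted p = 0.0259), with another probe at 0.18 that did not pass. The Gde1 call was lost when wild type 1, wild type 2 or knockout 1 was left out (adjusted p = 0.121, 0.147 and 0.0670), which left Gdpd1 alone. Gdpd4 differed by -0.03 and the brighter Gpcpd1 probe by 0.21, neither past the test, while the dimmer Gpcpd1 probe rose by 0.55 (adjusted p = 0.0277). Gdpd2 and Gdpd5 were not detected on any array.

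Of 24 tested genes of N-acylethanolamine and lysophosphatidate metabolism and their receptors, 7 rose (29.2%, against 14.5% of all tested genes) and 4 fell (16.7%, against 11.0%), with a median of 0.19. Lpar1, a receptor for lysophosphatidic acid, read 191 and 171 on the knockout arrays, against 328 and 317 on the wild type arrays, and fell by 1.17 ± 0.14 (adjusted p = 0.00264). Ptpn22, a lymphocyte phosphatase included for its part in N-acylethanolamine formation, did not clear background on the knockout arrays. It was at least 3.53-fold lower (adjusted p = 0.000508 in limma), and passed the filter only through the wild type arrays. Among the rises, Lpar4 passed the filter only through the knockout arrays. Mgll, monoacylglycerol lipase, rose by 0.77 ± 0.13 (adjusted p = 0.0102), and did not pass without wild type 1 or 2 (adjusted p = 0.0741 and 0.0650). The list had 1 rise and 2 falls without wild type 1, 2 falls and no rise without wild type 2, and 4 rises and 2 falls without knockout 1.

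The reelin receptor genes Vldlr and Lrp8 read higher on the knockout arrays. The calls of Lrp8 and of the brighter Vldlr probe depended on the arrays used. Vldlr was read by 2 probes at similar change. The brighter one read 948 and 1108 on the knockout arrays, against 472 and 572 on the wild type arrays, and rose by 0.88 ± 0.17 (SE, log2, adjusted p = 0.0136), and the other rose by 0.78 ± 0.14 (adjusted p = 0.0113). The call of the brighter probe was lost without wild type 1 or 2 (0.77 and 0.99, adjusted p = 0.0919 and 0.0530). Lrp8, near background, read 116 and 118 on the knockout arrays, against 103 and 95.5 on the wild type arrays, where it was not well above background. Lrp8 thus passed the filter only through the knockout arrays. It was at least 1.21-fold higher (adjusted p = 0.0376), but did not pass with any 1 of the 4 arrays left out (adjusted p = 0.0688 to 0.196). The same held with replicate number as a block (adjusted p = 0.0560) and, at 0.27, for the processed values of the authors (adjusted p = 0.0726). The 3 probes of the adaptor Dab1 were not detected on any array.

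Of 28 tested reelin receptors, proteases and effectors, 5 rose (17.9%, against 14.5% of all tested genes) and 2 fell (7.14%, against 11.0%), with a median of 0.29. The share called in either direction is close to that of all tested genes. The falls were Pafah1b3, a subunit of a platelet activating factor hydrolase that binds Lis1, by 1.07 ± 0.16 (adjusted p = 0.00590), and Clu, which encodes the lipoprotein receptor ligand clusterin, by 1.02 ± 0.18 (adjusted p = 0.0108). The Clu call was lost without wild type 1 or 2 (adjusted p = 0.0692 and 0.0652). With median scaling, 12 rose and 2 fell; the median over all tested probes was then 0.21, and 0.05 with quantile normalization. Without wild type 1 or wild type 2 the list had 1 fall each and no rise, and without knockout 1 it had 2 of each.

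**Figure D4:**
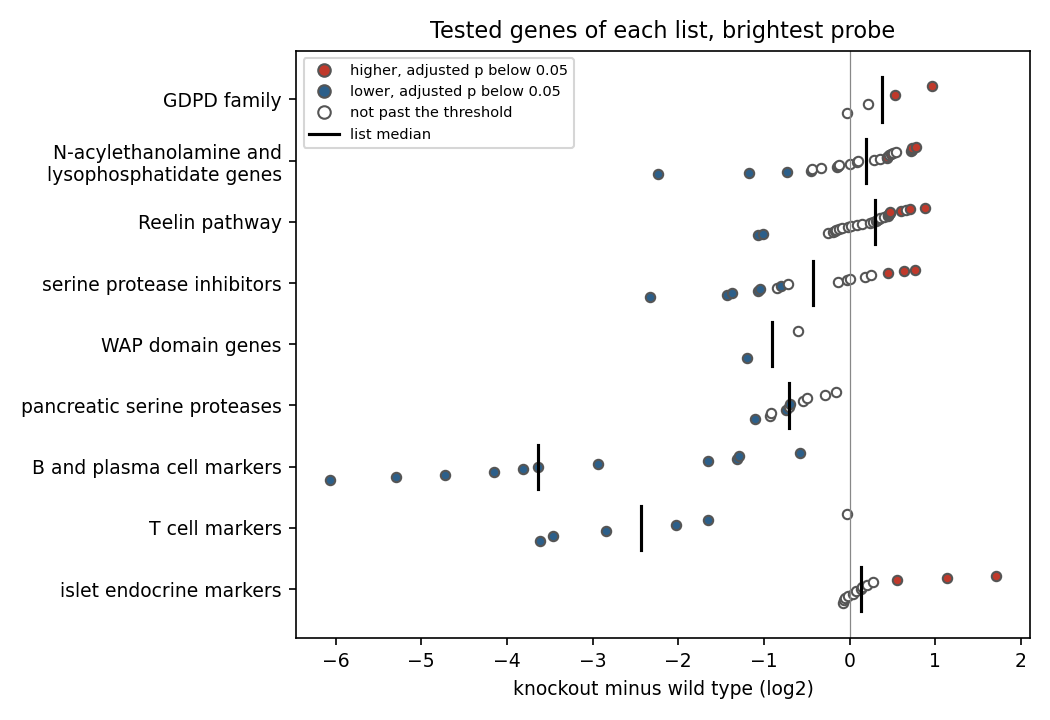
Knockout minus wild type change (log2, horizontal axis) of each tested gene of 9 lists, 1 point per gene with its brightest tested probe, filled where adjusted p is below 0.05 in limma, with a black bar at the list median. Genes of the GDPD, N-acylethanolamine and lysophosphatidate, reelin and protease inhibitor lists lie on both sides of 0. The tested pancreatic serine proteases and WAP domain genes all lie below 0, and the B and plasma cell markers have a median of -3.63.

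Markers of other cell types moved on the same arrays. All 11 tested B and plasma cell markers fell (100%, against 11.0% of all tested genes), with a median of -3.63. Markers not detected on every knockout array passed the filter only through the wild type arrays, where they were high. The count is therefore a description. Their summed normalized intensity was 493 and 719 on the knockout arrays, against 10533 and 9479 on the wild type arrays, and 5 of them did not clear background on the knockout arrays. The median gap of these markers between the wild type arrays was -0.09 (log2, wild type 1 minus wild type 2), and single markers ran from -0.61 for Cd79a to 0.79 for Jchain. Of 6 tested T cell markers 5 fell (83.3%). These 5 did not clear background on the knockout arrays and passed the filter only through the wild type arrays. The list median was -2.44, and the sum was 3563 and 3066 on knockout arrays, against 4097 and 4787 on wild type arrays, most of it from Cd8b1, which did not pass (-0.02).

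Lymphatic endothelium, which can make reelin, had 3 of 7 tested markers lower (42.9%). Of all tested genes 11.0% were lower and 14.5% higher. Lyve1, its hyaluronan receptor, which some macrophages also carry, fell by 1.91 (adjusted p = 0.000513). Prox1 and Flt4 differed by -0.27 and -0.09 and did not pass. Pdpn, also lower, passed the filter only through the wild type arrays. The list's sum was 3224 and 3652 on the knockout arrays, against 6280 and 6190 on the wild type arrays. Of 11 tested duct markers 3 fell (27.3%) and 1 rose (9.09%), with a median of 0.01. Their sums were 11765 and 11033 on knockout arrays, against 12315 and 14025 on wild type arrays. Among the duct falls, Sox9 did not pass with the authors' values, and Tff2 did not pass without the filter on dim probes. Of 13 tested acinar markers 4 fell (30.8%), with a median of -0.71. Their sums were 74499 and 80154 on knockout arrays, against 93322 and 110921 on wild type arrays. The median gap of the acinar list between the wild type arrays was -0.42 (log2, wild type 1 minus wild type 2). Its falls were Cpa1, Pnliprp1, Prss2 and Clps, at -0.89, -0.83, -0.74 and -0.93. Without wild type 2 they were at -0.58, -0.65, -0.48 and -0.75. Some acinar markers are also in the pancreatic serine protease list. Of 7 macrophage markers 2 fell (28.6%) and 1 rose (14.3%), with a median of 0.02. The falls were Lyz1 (-3.78) and Lyz2 (-3.19), and the rise was Adgre1 (0.78). Lyz1 passed the filter only through the wild type arrays. C1qa, C1qb, C1qc and Aif1 did not pass. The list's sums, lysozyme genes included, were 1600 and 1829 on knockout arrays, against 2778 and 3316 on wild type arrays. The 3 tested neutrophil markers Camp, Csf3r and Mmp9 differed by -0.32 to 0.50 and did not pass, and 9 others, S100a8 and S100a9 among them, were not detected on any array. The part of any of these cell types in the values of Slpi, Gdpd3 and Reln was not tested.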

How the data were processed

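Values came from 4 Illumina bead arrays, 2 knockout and 2 wild type. The table deposited by the authors gives, per the file headers, a linear intensity averaged over beads, its bead standard error (also an intensity), a count of beads and a detection p-value per probe and array. A second deposited table holds the authors' processed log2 values, whose normalization the labels do not state, and served as an alternative. Intensities were background-corrected with normexp through the detection p-values (offset 16), log2 transformed and quantile normalized in limma 3.58.1 (R 4.3.3). Probes with detection p below 0.05 on both arrays of either genotype were tested (15639) by lmFit and eBayes, with Benjamini-Hochberg adjustment over all of them and a threshold of 0.05. The fit was tested on simulated data. Each gene stands for its brightest tested probe. Where a genotype was not well above background, the bound sets each of its arrays at the lowest detected value there, or at its own value if higher. Gene names came from the platform annotation (29965 probes with 1 symbol, 10 with several, 16657 unnamed here). The members and gene lists were chosen with earlier results of these data known. Genes named were the members, the GDPD and WAP domain genes, Vldlr, Lrp8, Dab1 and Bmpr1a, up to 4 called genes of each list (the 2 largest changes where fewer than 2 passed), the 5 nearest profiles and the 3 neighbours on each side. Others were named after their values were seen, and not every gene of the rule is printed. Detected probes per array ranged from 14785 to 16171, and the number of arrays limits the precision.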

Additional observations from a re-analysis of the deposited data

How the results depend on the processing

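Slpi, Gdpd3 and Reln stayed lower in knockout islets under every alternative run, and the size of the bound moved. The members were chosen for this difference on the same arrays, so nothing is read from the kept sign. The bounds for Slpi, Gdpd3 and Reln were 37.0-fold, 13.4-fold and 8.86-fold with an offset of 50. They were 29.9-fold, 11.0-fold and 7.34-fold without background correction, and 26.1-fold, 9.57-fold and 6.49-fold with the authors' values. Reln was at 13.1-fold with median scaling. Leaving out 1 array at a time (normalized on all 4) gave 43.3-fold to 89.9-fold for Slpi, 15.0-fold to 32.4-fold for Gdpd3 and 13.9-fold to 15.0-fold for Reln. The other 5 Reln probes were not well above background in either genotype and could give no bound. Over all probes, 2203 were higher and 1785 lower. Median scaling gave 3517 higher, and leaving out 1 array gave 677 to 2041 higher and 787 to 1790 lower. Genes past the test per list ranged, with 1 array left out, from 3 to 10 for protease inhibitors, 1 to 2 for WAP domain genes, 0 to 6 for pancreatic serine proteases, 1 to 2 for the GDPD family, 2 to 10 for N-acylethanolamine and lysophosphatidate genes and 1 to 8 for the reelin list. The pancreatic serine proteases, 3 at first, gave 5 with an offset of 50, 6 without background correction, 1 with median scaling, 6 with the authors' values, 0 without the filter, 7 with an intensity trend and 8 with the replicate block. The GDPD family gave 1 with the mean of a gene's probes, the N-acylethanolamine and lysophosphatidate list 7 without the filter, and the reelin list 14 with median scaling. Replicate numbers did not pair the arrays (correlation of same-numbered deviations 0.02), and the block left 2141 probes higher and 1776 lower. Of 75 named genes, 37 kept call and sign under every setting and 38 changed under some. Without the filter on dim probes alone, 15 lost their call. The 7 that changed sign had small differences that did not pass. Median scaling gave 0.0126 for Bmpr1a, 0.0695 for Bola2, 0.0702 for Dnajc2 and 0.00172 for Ppp4c. Cyclic loess gave -0.00562 for Orc5 and -0.0134 for Ypel3. With 1 array left out, Dnajc2 ran from -0.306 to 0.0546, Gdpd4 ran from -0.19 to 0.128, Orc5 ran from -0.10 to 0.198 and Ypel3 from -0.171 to 0.277. The cause of these shifts was not tested.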
